A study of Mus musculus with 10 samples.

Results

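A set of 9 enzymes of serine, folate and one-carbon metabolism was followed across the nodes, out of 33585 genes in the deposited tables. They were picked by name, through the Ensembl identifiers of the tables, after results of the same treatment comparison had been seen. The comparison between the groups is therefore given for these 9 genes as a description, with no test. All 9 passed the filter, a mean of 1 FPKM or more, which left 13334 genes. FPKM scales fragments by the length of the transcript and by the mapped total, so genes can be set side by side within a library, apart from biases particular to a gene.

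RNA was sequenced from tumor-draining lymph nodes (TDLNs) of 10 female BALB/c mice, each 6 weeks old and bearing tumors of 4T1, a mammary carcinoma cell line of the same strain. In every mouse the tumor was treated by microwave ablation (MWA) on day 10, and nodes were taken on day 15. The 5 mice of the MWA group received PBS, as the study's methods state, and the 5 mice of the MWA+2DG group received 2-deoxy-D-glucose (2DG), a glucose analogue that blocks early glycolysis. All 10 mice thus shared the tumor and the ablation, and no untreated node or node after 2DG alone was analysed here. The question was whether the enzymes that turn a glycolytic intermediate into serine and one-carbon units differed between the groups.

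Serine is made from the glycolytic intermediate 3-phosphoglycerate by PHGDH, PSAT1 and PSPH in turn. Serine hydroxymethyltransferase passes a carbon from serine to tetrahydrofolate, in mitochondria (SHMT2) or in the cytosol (SHMT1). The mitochondrial enzymes MTHFD2 and MTHFD1L turn that unit into formate, and cytosolic MTHFD1 returns formate to the folate pool, where it serves purine synthesis, thymidylate synthesis by TYMS and methionine. Dividing lymphocytes are known to draw on this pathway for nucleotides.

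A few libraries stood apart. The summed FPKM was between 312143 and 359984, with the highest sum in MWA mouse 5. The first principal component over all tested genes took 36.4% of the variance and separated mice 1 and 2 of both groups from mice 3, 4 and 5 of both groups, and what the 2 sets stand for is not given in the labels. Markers of T cells, B cells and lymph node stroma were detected in every library. The 10 genes of a liver list summed to between 22.1 and 27.3 FPKM in mice 1 and 2 of both groups and to between 82.0 and 194 FPKM in mice 3 to 5. Sequencing depth cannot be read from FPKM and is unknown.

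Among the mitochondrial enzymes, Shmt2 was the most abundant and had the widest spread with 2DG. Shmt2 was at 40.8, 38.4, 45.0, 43.6 and 44.0 FPKM in MWA mice 1 to 5 and at 36.8, 42.1, 48.3, 53.4 and 47.8 FPKM in MWA+2DG mice 1 to 5. In all, 3 MWA+2DG mice lay above every MWA mouse and 1 below every MWA mouse, so the groups overlapped. As MWA+2DG over MWA on log2(FPKM + 1), the log2 fold change was 0.10 (standard error 0.10). It was -0.01 among mice 1 and 2, 0.17 among mice 3 to 5, and 0.04 without MWA+2DG mouse 4.

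Mthfd2, which oxidises the folate-bound unit in mitochondria, was the steadiest member. It was at 17.3, 15.1, 16.0, 17.7 and 17.7 FPKM in MWA mice and at 16.7, 17.2, 16.8, 18.0 and 17.9 FPKM in MWA+2DG mice. The highest value was 1.19 times the lowest over the 10 mice, and the groups overlapped, with a log2 fold change of 0.05 (standard error 0.07), and 0.01 without MWA mouse 2.

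Mthfd1l, which releases formate from mitochondria, was at 17.5, 18.5, 15.0, 15.9 and 13.8 FPKM in MWA mice and at 17.4, 15.7, 15.3, 15.8 and 12.2 FPKM in MWA+2DG mice. Mouse 5 was lowest in each group, and the groups overlapped. Its log2 fold change was -0.07 (standard error 0.11), and -0.00012 without MWA+2DG mouse 5.

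The 3 cytosolic folate enzymes all had negative log2 fold changes. Shmt1 was at 8.81, 7.94, 7.67, 7.53 and 7.65 FPKM in MWA mice and at 7.46, 8.01, 7.32, 7.95 and 6.93 FPKM in MWA+2DG mice. The groups overlapped, with MWA mouse 1 the highest and MWA+2DG mouse 5 the lowest, and the log2 fold change was -0.06 (standard error 0.07), and -0.03 without MWA mouse 1.

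Mthfd1, the trifunctional cytosolic enzyme, was nearly level in the MWA group, at 14.4, 14.3, 13.9, 13.9 and 13.9 FPKM. With 2DG it was at 13.8, 14.0, 13.3, 13.2 and 10.5 FPKM. In all, 4 of the 5 MWA+2DG mice lay below every MWA mouse, and mouse 2 did not. For Mthfd1 the log2 fold change was -0.12 (standard error 0.08), and -0.05 without MWA+2DG mouse 5.

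Tyms, which makes thymidylate for DNA synthesis, was the least abundant member and had the most negative log2 fold change of the 9. It was at 4.73, 4.37, 4.26, 4.23 and 5.50 FPKM in MWA mice and at 4.08, 4.30, 4.14, 4.03 and 3.49 FPKM in MWA+2DG mice. Here too 4 MWA+2DG mice lay below every MWA mouse, and mouse 2 lay above the 2 lowest MWA mice. For Tyms the log2 fold change was -0.16 (standard error 0.08), and -0.11 without MWA mouse 5.

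The serine synthesis genes were highest in 1 library, that of MWA mouse 5. Phgdh, the first enzyme of the route, was at 51.3, 43.7, 41.9, 40.7 and 64.8 FPKM in MWA mice and at 40.2, 45.2, 42.7, 50.2 and 43.4 FPKM in MWA+2DG mice. MWA mouse 5 was the highest and MWA mouse 1 the next, and the MWA+2DG values lay within the range of the other group except for mouse 1. For Phgdh the log2 fold change was -0.11 (standard error 0.13), and 0.00094 without MWA mouse 5.

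Psat1, the aminotransferase of the second step, was at 21.1, 18.7, 19.5, 22.0 and 23.7 FPKM in MWA mice and at 18.5, 19.2, 18.6, 22.6 and 17.1 FPKM in MWA+2DG mice. Mouse 5 was the highest of the MWA group and the lowest of the MWA+2DG group. The log2 fold change was -0.13 (standard error 0.09), and -0.08 without MWA mouse 5.

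Psph, the phosphatase of the last step, was at 6.76, 6.02, 6.08, 5.45 and 7.20 FPKM in MWA mice and at 5.97, 5.85, 6.02, 6.39 and 5.71 FPKM in MWA+2DG mice. The MWA+2DG values all fell inside the MWA range. Its log2 fold change was -0.06 (standard error 0.08), and -0.02 without MWA mouse 5.

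**Figure D1:**
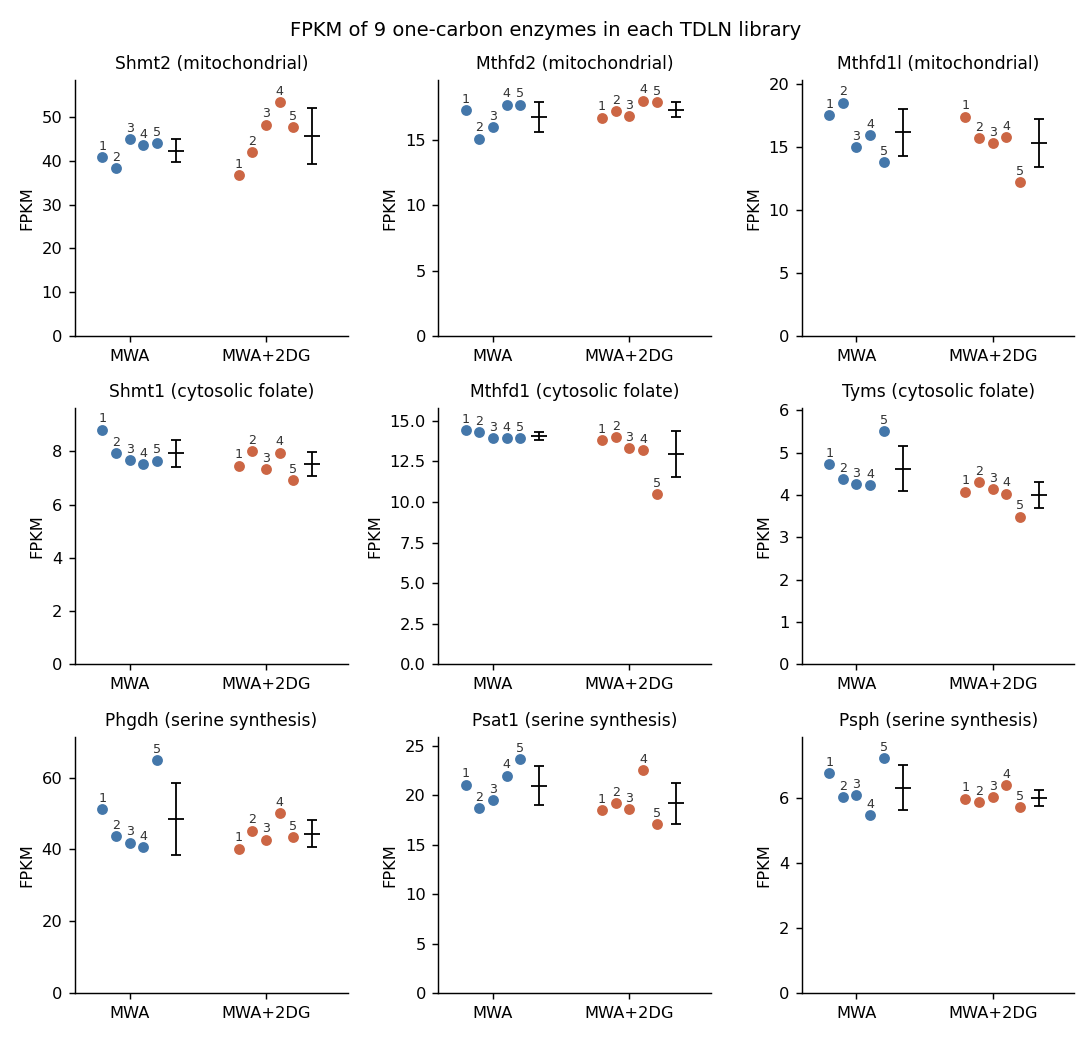
FPKM of each of the 9 enzymes (y axis, from 0) in the 5 MWA and 5 MWA+2DG mice, numbered by mouse, with the mean and SD of each group in black. The groups overlap for all 9 genes, and MWA mouse 5 stands high for Phgdh (64.8 FPKM) and Tyms (5.50 FPKM), while MWA+2DG mouse 5 stands low for Mthfd1 (10.5 FPKM).

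Read together, 7 of the 9 enzymes had a negative log2 fold change and 2 a positive one, with values from -0.16 for Tyms to 0.10 for Shmt2. Of all tested genes 47.4% were negative. The median was -0.07 for the 9 enzymes and 0.01 for all tested genes. The study's rule calls a gene at an unadjusted P below 0.05 in limma with a log2 fold change beyond 0.25. By that rule 0 of the 9 were called, beside 2.82% of all tested genes, and 0 of the 9 had an unadjusted P below 0.05, beside 4.25%. No gene of the 13334 passed an adjusted p of 0.05 in limma, with 567 at an unadjusted P below 0.05 and 416 in the Wilcoxon rank-sum test. The groups overlapped for 9 of 9, and of all tested genes 0.802% had groups that did not overlap. Because the genes were chosen from this comparison, nothing further is read from these counts.

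The compartments were then set beside each other within each mouse. The mean log2(FPKM + 1) of the 3 mitochondrial enzymes was 4.56 ± 0.03 (SD, n = 5) with MWA and 4.58 ± 0.07 (SD, n = 5) with MWA+2DG, which differ by 0.02. For the 3 cytosolic folate enzymes it was 3.19 ± 0.06 (SD, n = 5) and 3.07 ± 0.10 (SD, n = 5), which makes -0.12, and for the 3 serine synthesis enzymes 4.31 ± 0.16 (SD, n = 5) and 4.21 ± 0.10 (SD, n = 5), which makes -0.10. The mitochondrial mean minus the mean of the 6 cytosolic enzymes was 0.78, 0.85, 0.87, 0.94 and 0.63 in MWA mice and 0.90, 0.87, 0.97, 0.96 and 1.01 in MWA+2DG mice. Of the MWA values, that of mouse 4 lay among those of the MWA+2DG group, and the other 4 lay below it. This contrast differed by 0.13 between the groups, by 0.07 among mice 1 and 2 and by 0.17 among mice 3 to 5. It was 0.09 without MWA mouse 5.

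Lists of cell division and cell type genes were read in the same libraries. The 35 genes of a cell division list summed to between 373 and 483 FPKM in MWA mice and between 254 and 408 FPKM in MWA+2DG mice, and all 35 had a negative log2 fold change, 19 of them called lower beside 1.87% of all genes. The 9 genes of a germinal centre B cell list summed to between 158 and 253 FPKM and between 109 and 170 FPKM, with 9 of 9 negative and 7 called lower. The 12 genes of a T cell list summed to between 597 and 893 FPKM and between 664 and 909 FPKM, with 12 of 12 positive and 2, Cd8a and Tcf7, called higher beside 0.952% of all genes. No gene of these 3 lists was at 0 in all libraries. A plasma cell list summed to between 738 and 4070 FPKM and between 592 and 2040 FPKM, with 7 of 8 tested genes negative and 2 called lower, Xbp1 and Mzb1. A neutrophil list summed to between 22.1 and 83.7 FPKM and between 11.3 and 23.8 FPKM, with 4 of 4 tested genes negative and 2 called lower, S100a8 and S100a9. The sum of 83.7 FPKM was that of MWA mouse 1 alone, and the other MWA mice reached at most 26.9 FPKM. In whole nodes, fewer cells of a type and less RNA per cell cannot be told apart. The part of the cell type lists in the enzyme values was not tested, and that of the cell division list was examined only within the groups.

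Each enzyme was compared with the mean level of the cell division list across the 10 mice, after the group means had been removed from both. This relation does not use the treatment difference. Psat1 had the highest correlation (r = 0.66, exact permutation p = 0.0672; rho = 0.58, exact permutation p = 0.0985), with an adjusted exact permutation p of 0.605 over the 9 genes. Its r was 0.29 without MWA+2DG mice 4 and 5, which were farthest from the median. It was 0.46 without MWA+2DG mouse 4 alone and 0.56 without MWA+2DG mouse 5 alone. Leaving out the most extreme mice also narrows the range of the cell division level, so the drop cannot show what the relation rests on. Mthfd1 followed at r = 0.63 (exact permutation p = 0.233), which turned to -0.55 without MWA+2DG mouse 5 and to -0.35 without both mice, and 0 of 9 enzymes passed an adjusted p of 0.05. Tyms, which supplies DNA synthesis, had an r of 0.22 (exact permutation p = 0.551), which turned to -0.35 without MWA+2DG mouse 5 and to -0.34 without both mice.

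Against a list of 21 DNA replication genes in place of the cell division list, the r of Psat1 was 0.93 (exact permutation p = 0.00167, adjusted 0.015 over the 9 genes; rho = 0.83, adjusted exact permutation p = 0.104). The other 8 enzymes did not pass, and the next were Shmt2 and Mthfd2, both at r = 0.58 (adjusted exact permutation p = 0.29). With the means of mice 1 and 2 and of mice 3 to 5 removed within each group, the r of Psat1 was 0.94 (exact permutation p = 0.00694, adjusted 0.0625). Mice were there permuted only within these sets, and 0.00694 is the smallest p that this allows. A lone enzyme could therefore not pass an adjusted p of 0.05 in that setting. Its r was 0.77 without the 2 mice farthest from the median (exact permutation p = 0.0625, adjusted 0.562) and at least 0.87 with any single mouse left out. The adjusted p was 0.05 or more without MWA mouse 2 or 5 or MWA+2DG mouse 4 or 5, at 0.05, 0.0531, 0.175 and 0.0687 in the exact permutation test.

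Neighbours in the order of the enzymes by level changed places in some mice. Phgdh at 46.4 FPKM and Shmt2 at 44.0 FPKM, as means over 10 mice, led together, and Phgdh was above Shmt2 in 5 of the 10 mice, so they were not separated. Psat1 (20.1 FPKM) was above Mthfd2 (17.1 FPKM) in 9 of 10 mice, Mthfd2 above Mthfd1l (15.7 FPKM) in 7, and Mthfd1l above Mthfd1 (13.5 FPKM) in 9. Shmt1 (7.73 FPKM), Psph (6.15 FPKM) and Tyms (4.31 FPKM) closed the order, each above the next in 10 of 10 mice.

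Paired enzymes of like reaction or linked steps differed in FPKM within the same mouse. They were compared by a two-sided exact sign-flip permutation test over the 10 mice, whose smallest p is 0.00195, with p-values adjusted over the 5 pairs tested, of which 4 are given. The test asks if a difference in FPKM repeats over mice. A bias of 1 gene that all libraries share would repeat as well, so a small difference need not be one of transcript level. Shmt2 was above Shmt1 in 10 of 10 mice by 2.36 ± 0.20 on the log2(FPKM + 1) scale (SD, n = 10; exact permutation p = 0.00195, adjusted 0.00326). In FPKM the ratio of the mitochondrial to the cytosolic isoenzyme was 4.63, 4.83, 5.86, 5.79 and 5.75 in MWA mice and 4.94, 5.26, 6.59, 6.72 and 6.89 in MWA+2DG mice. Mice 1 and 2 were the lowest of both groups, and the groups overlapped.

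Mthfd2 was above Mthfd2l, its mitochondrial paralogue, in 10 of 10 mice, with a median FPKM ratio of 33.0 and a range of 25.1 to 49.1 (exact permutation p = 0.00195, adjusted 0.00326). Mthfd2l itself was between 0.364 and 0.666 FPKM and was below the filter. Mthfd1 was below Mthfd1l by 0.20 ± 0.10 on the log2 scale (SD, n = 10; exact permutation p = 0.00391, adjusted 0.00488), and only in MWA mouse 5 was it the higher one.

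Psat1 was below Phgdh in 10 of 10 mice, with a median ratio of 0.431 (exact permutation p = 0.00195, adjusted 0.00326). None of the 4 results turned or was lost under another pseudocount, quantile normalization or any single mouse left out. Another pseudocount or quantile normalization keeps the order of a pair within a library. Omission of a mouse keeps an order that 10 of 10 mice share. Except for Mthfd1 and Mthfd1l, this outcome was thus fixed in advance.

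**Figure D2:**
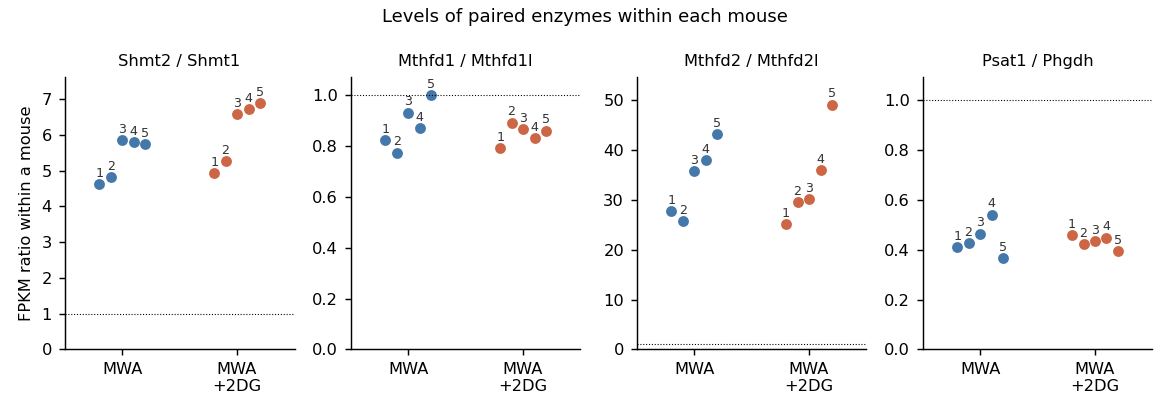
FPKM of one gene divided by that of its partner within each mouse (y axis, from 0) for 4 pairs, with 5 MWA and 5 MWA+2DG mice numbered, and a dotted line at a ratio of 1. Shmt2 exceeds Shmt1 by 4.63 to 6.89 times, and in both groups mice 1 and 2 have the lowest Shmt2 to Shmt1 ratio.

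Read assignment bears on these levels. In the GENCODE vM21 annotation, exons of Shmt2, Shmt1, Mthfd1 and Psph overlap those of a gene on the opposite strand, Ndufa4l2, Smcr8, Gm47525 and Cct6a in that order. The library kit marks strand, but the sources used here do not say if the quantification used it, so reads of these partners may be shared. The pseudogene Phgdh-ps1 was listed at 1.02 to 1.72 FPKM, and Tyms-ps was at 0 in all libraries but MWA mouse 5, where it was at 0.0566 FPKM.

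The members were also set against each other, in 36 pairs of group-centred values. The highest correlation was between Phgdh and Psph, 2 enzymes of serine synthesis (r = 0.88, exact permutation p = 0.00417; rho = 0.76, exact permutation p = 0.0436). Its adjusted exact permutation p over the 36 pairs was 0.148, its r without MWA mouse 5 and MWA+2DG mouse 4 was 0.74, and within the sets of mice it was 0.90. Mthfd1l and Mthfd1, which handle formate on the 2 sides of the mitochondrial membrane, followed at r = 0.78 (exact permutation p = 0.00819, adjusted 0.148), and 0.59 without mouse 5 of both groups. No pair passed an adjusted p of 0.05. After median ratio scaling the r of Mthfd1l and Mthfd1 was 0.32, while that of Phgdh and Psph was 0.95 (exact permutation p = 0.00104, adjusted 0.0187).

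The 3 genes most like each member were taken from the other 13333 tested genes, by Pearson's r over the 10 mice after removal of group means. For Psat1 they were Gmnn, the replication licensing inhibitor geminin (r = 0.95), Mtfr2 (0.93) and Suclg1, a subunit of succinate-CoA ligase (0.93). For Shmt2 they were the splicing factor gene Sf3a2 (0.97), the cyclin gene Ccnd3 (0.96) and the translation factor gene Eif4h (0.96). Phgdh was nearest to Rps27l (0.97), Gm9625 (0.97) and the ribosomal pseudogene Rpl3-ps1 (0.97), and Psph to Comtd1 (0.96), Guk1 (0.95) and Zfpl1 (0.95).

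Tyms was nearest to Ptma (0.97), Rnf7 (0.97) and Dcun1d5 (0.96), and Shmt1 to Afg3l1 (0.99), Aaas (0.98) and Set (0.92). Mthfd1l was nearest to Galnt1 (0.99), Gpat4 (0.99) and Gm42141 (0.98), Mthfd1 to Gm11696 (0.98), Armc1 (0.97) and Zfp422 (0.96), and Mthfd2 to Ighv1-22 (0.90), Gemin6 (0.88) and Psmd11 (0.87). These are the highest of 13333 values over 10 mice and are given as a description.

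The wider pathway was read in 7 lists of 86 genes, of which 71 were tested. Of these, 3 were called higher in the MWA+2DG group, Chac1 and Ddit3 among them, beside 0.952% of all tested genes, and 1 lower (Rrm1), beside 1.87%. Chac1 passed the filter only through the MWA+2DG group, as its values below show. The smallest adjusted p of the 71 was 0.995 in limma with Benjamini-Hochberg adjustment, so none passed the correction. The log2 fold change was positive in 36 and negative in 35.

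**Figure D3:**
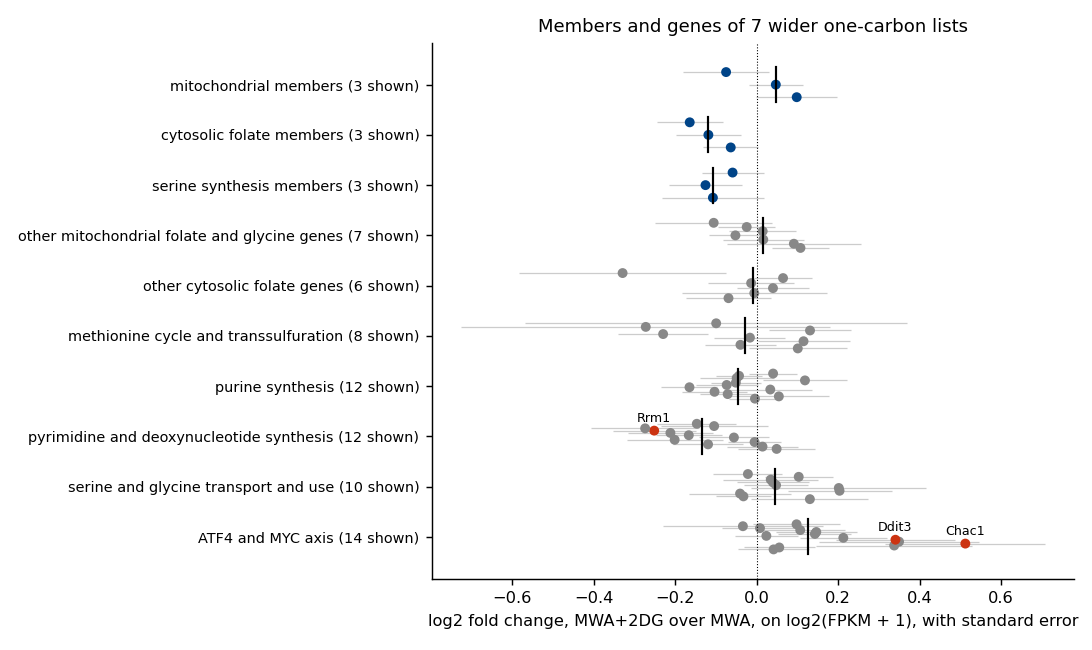
Log2 fold change, MWA+2DG over MWA on log2(FPKM + 1), with its standard error (x axis), for the 9 enzymes (blue) and 69 of the 71 tested genes of 7 wider lists (grey, or red where called), with the median of all tested genes of the list as a black line. The list medians run from -0.13 for pyrimidine and deoxynucleotide synthesis to 0.13 for the ATF4 and MYC axis, and called genes are named.

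Of the other mitochondrial folate and glycine genes, 7 of 11 were tested and 0 were called, with a median log2 fold change of 0.02. The smallest P was that of Mtfmt, which formylates the mitochondrial initiator tRNA (0.11, standard error 0.07). Dld, the shared dihydrolipoamide dehydrogenase, was at -0.05 (standard error 0.07) and Sardh, the sarcosine dehydrogenase, at -0.11 (standard error 0.14).

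Of the other cytosolic folate genes, 8 of 11 were tested, with a median of -0.01. Folr2, a folate receptor of macrophages, was at -0.33 (standard error 0.25), with values between 0.355 and 2.82 FPKM. In a macrophage and monocyte list 9 of 10 tested genes were negative, and 1, Csf1r, was called lower, beside 1.87% of all tested genes. The part of that list in the value of Folr2 was not tested.

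The methionine cycle and transsulfuration list had 0 calls among 8 tested genes and a median of -0.03. Ahcy, which hydrolyses S-adenosylhomocysteine, had the smallest P (-0.23, standard error 0.11), followed by Ahcyl1 (0.13, standard error 0.10) and Mat2a, the S-adenosylmethionine synthetase of most tissues (0.12, standard error 0.11). The 3 genes Bhmt, Gnmt and Mat1a, singled out after their values were seen, are best known from liver. Bhmt was between 0 and 0.03 FPKM in mice 1 and 2 of both groups and between 0.504 and 2.49 FPKM in mice 3 to 5, and the liver list given above was high in the same 6 mice. The part of liver transcripts in these 3 genes was not tested.

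Most nucleotide synthesis genes had negative log2 fold changes. In pyrimidine and deoxynucleotide synthesis 10 of 12 tested genes were negative, with a median of -0.13. Rrm1, the large subunit of ribonucleotide reductase, was at 12.4, 13.2, 11.9, 12.6 and 13.5 FPKM in MWA mice and at 12.1, 11.6, 9.15, 11.8 and 8.46 FPKM in MWA+2DG mice. Mouse 1 of the MWA+2DG group lay within the MWA range and the other 4 below it. Its log2 fold change was -0.25 (standard error 0.10, adjusted p = 0.995 in limma), and the call was lost in 4 of 10 omissions of a mouse, without MWA mouse 2 or 5 or MWA+2DG mouse 3 or 5, and after rescaling to a fixed sum (-0.20).

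Rrm2 was at -0.27 (standard error 0.13) and Dtymk, the thymidylate kinase after TYMS, at -0.17 (standard error 0.08). In purine synthesis 8 of 12 were negative with a median of -0.05. Paics was at -0.16 (standard error 0.07), Gart at -0.10 (standard error 0.08) and Impdh1 at 0.12 (standard error 0.10). The cell division list, given above, was also negative, and its part in these values was not tested.

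Serine and glycine carriers and users had 0 calls among 10 tested genes and a median of 0.04. Slc38a2, a neutral amino acid carrier, was at 0.20 (standard error 0.13), Serinc1 at 0.10 (standard error 0.08) and Slc7a10 at 0.20 (standard error 0.21).

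ATF4 is a transcription factor of the amino acid and stress response, and serine synthesis and mitochondrial folate genes are known among its targets. In the ATF4 and MYC list 13 of 14 tested genes were positive, with a median of 0.13, beside 0.01 for all genes. Chac1, which degrades glutathione and is an ATF4 target, was at 0.505, 0.654, 0.870, 0.686 and 0.659 FPKM in MWA mice and at 1.36, 0.427, 1.29, 1.88 and 2.46 FPKM in MWA+2DG mice. In all, 4 MWA+2DG mice were above every MWA mouse, and mouse 2 was below all of them. For Chac1 the log2 fold change was 0.51 (standard error 0.20, adjusted p = 0.995 in limma), and the call was lost without MWA mouse 1 or MWA+2DG mouse 4 or 5 (0.47, 0.44 and 0.38).

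Ddit3, which encodes the stress factor CHOP, was at 12.4, 13.5, 12.5, 11.7 and 11.2 FPKM in MWA mice and at 12.7, 13.0, 15.9, 15.6 and 23.7 FPKM in MWA+2DG mice. Mice 1 and 2 of the MWA+2DG group lay within the MWA range and mice 3 to 5 above it. The log2 fold change was 0.34 (standard error 0.15, adjusted p = 0.995 in limma), -0.01 among mice 1 and 2 and 0.57 among mice 3 to 5. It was 0.20 without MWA+2DG mouse 5, and the call was lost in 7 of 10 omissions of a mouse (MWA mouse 1, 3, 4 or 5 and MWA+2DG mouse 3, 4 or 5), and under quantile normalization or median ratio scaling (log2 fold change 0.33 and 0.34). Exons of Ddit3 overlap those of Mars and Gm4189 on the opposite strand.

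Sesn2, a stress-induced regulator of growth signalling, was at 0.21 (standard error 0.11). Atf4 itself was at 0.04 (standard error 0.09) and Myc at 0.06 (standard error 0.09). Among the serine synthesis and mitochondrial folate enzymes, Phgdh, Psat1, Psph and Mthfd1l had log2 fold changes of -0.11, -0.13, -0.06 and -0.07. Shmt2 was at 0.10 and Mthfd2 at 0.05, and the groups overlapped for all of these enzymes.

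**Figure D4:**
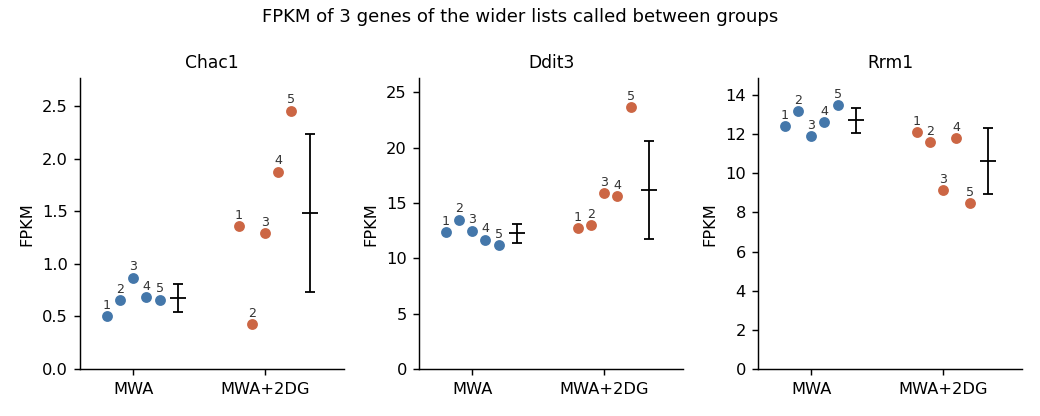
FPKM (y axis, from 0) of Chac1, Ddit3 and Rrm1 in the 5 MWA and 5 MWA+2DG mice, numbered by mouse, with the mean and SD of each group in black. MWA+2DG mouse 5 is the highest for Chac1 (2.46 FPKM) and Ddit3 (23.7 FPKM) and the lowest for Rrm1 (8.46 FPKM).

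Promoter sequence was read to show which letters the members carry. RefSeq windows on GRCm38.p6, from 250 bases before to 50 bases after the start of each gene, were found for all 9 enzymes, 10 windows in all, and were searched on both strands. The letters TGATGNAAN, the composite C/EBP-ATF element through which ATF4 acts, were in 3.95% of 32851 windows and in those of 0 of the 9 enzymes. With so small a share, 0 of 9 shows nothing particular to the enzymes. Of the ATF4-linked genes searched beside the enzymes, Asns, Chac1 and Trib3 had them in their windows, and Ddit3 and Sesn2 did not. The E-box CACGTG, which MYC can bind, was in 7.15% of windows and in 1 enzyme, Tyms. CGCATGCG, the core of the palindrome of NRF1, a regulator of mitochondrial genes, was in 1.87% of windows and in 1 enzyme, Shmt2.

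The E2F letters TTTCGCGC or TTTGGCGC were in 0.813% of windows and in 0 enzymes. CCAAT was in 37.4% of windows and in 6 enzymes, Mthfd2, Shmt1, Mthfd1, Phgdh, Psat1 and Psph. For Shmt2, Tyms and Chac1, the stretch that holds a rarer motif is shown up to the base before the start at most. It is on the strand of the gene, with the motif in capitals. That of Shmt2 is chr10:127522445-127522487 on the minus strand, that of Tyms chr5:30073656-30073711 on the minus strand, and that of Chac1 chr2:119351023-119351081 on the plus strand, where the element reads on the opposite strand.
Shmt2: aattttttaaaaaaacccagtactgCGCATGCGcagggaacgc
Tyms: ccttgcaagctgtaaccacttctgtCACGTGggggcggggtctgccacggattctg
Chac1: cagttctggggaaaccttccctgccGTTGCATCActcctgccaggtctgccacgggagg
The motif of Shmt2 begins 18 bases before the start, that of Tyms 61 and that of Chac1 194. A match describes the letters only, and binding was not measured. A window without a match may hold the element in other letters, or the gene may hold it outside the window.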

How the data were processed

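Libraries of poly(A) RNA from 10 nodes, 1 per mouse, were made with a strand-marking kit with molecular identifiers. The study's methods name fastp, HISAT2, StringTie and ballgown, and the submitters' processing notes list cutadapt 1.9, HISAT2 2.0.4, StringTie 1.3.4d, UMI-tools and the mm9 build. The annotation was not found in the sources used here. The authors deposited FPKM per gene, already scaled by transcript length and mapped reads, so counts, depth and counting error are unknown. Low values were no multiples of a unit (smallest above 0, 1e-06), so reads were not recovered. No 2 libraries were equal at more than a share of 0.000178 of genes.

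Symbols matched 33541 of 33643 identifiers, and 57 shared symbols were summed. Genes that reached a mean of 1 FPKM were fitted by limma (3.58.1, under R 4.3.3), the test that the study names, on log2(FPKM + 1) over 5 MWA and 5 MWA+2DG mice with no covariate. Such a fold change understates that of low genes. In simulated data 170 of 200 genes changed by a log2 fold change of 1 were recovered at an adjusted p of 0.05 among 13334, with 10 false, and 84 of 200 changed by 0.5, with 2 false. Genes were drawn there independently of each other, unlike those of the real libraries, and changes as small as those of the enzymes were not simulated. Within-mouse pairs were tested by all 1024 sign flips, and correlations by all 14400 permutations within groups, in Python 3.11.15 with scipy 1.17.1, with Benjamini-Hochberg adjustment. Settings that left mice out or removed the means of the sets had fewer flips or permutations. That labels mark separate mice comes from the study's methods.

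The members, the lists and the tests were chosen with earlier results of these data known. Named genes are the 9 enzymes, the partners in the pairs, the called genes and the 3 of smallest P of each wider list, and the 3 nearest genes of each enzyme. Asns and Trib3 are named only for the promoter search. Correlations among members, and alternatives to the DNA replication correlation, were added after the data were seen. A few genes taken up by the rule are left unreported. No protein sequence was used here.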

Additional observations from a re-analysis of the deposited data

Results flagged for a closer look

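In 74 sets of values (each enzyme, named gene, group mean and list level in 5 mice, or each ratio in 10) the most extreme value was compared with the next by Dixon's ratio of gap to range, with critical values of 0.71 for 5 mice and 0.466 for 10. Chance gives about 1 in 20, and 6 sets passed. Of these 6, 4 belong to MWA+2DG mouse 5. They are Mthfd1 at 10.5 FPKM (next 13.2 FPKM), the mean log2 level of the 3 cytosolic folate enzymes at 2.89 (next 3.08), Ddit3 at 23.7 FPKM (next 15.9 FPKM) and Mtfmt at 6.25 FPKM (next 7.13 FPKM). The mean of the cytosolic folate enzymes holds Mthfd1, so those 2 sets are not separate. In the same mouse the cell division list summed to 254 FPKM, the lowest of the 10, and the NK cell list to 225 FPKM, the highest. The part of the NK cell list in these values was not tested, and for Mthfd1 the r with the cell division level within groups was 0.63, and -0.55 without this mouse. The other 2 were Mat2a in MWA mouse 5 at 59.2 FPKM (next 74.6 FPKM) and Serinc1 in MWA+2DG mouse 1 at 20.4 FPKM (next 18.1 FPKM). Phgdh in MWA mouse 5 did not pass, at 64.8 FPKM with 51.3 FPKM next.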

How the results depend on the processing

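The 161 alternative values of the 9 enzymes' log2 fold changes all moved by less than 1 SD of the mice. This limit is a weak one, since filters and replicate terms leave the value as it was and omission of 1 mouse cannot move it that far. It was also wider than the log2 fold change of most enzymes (for Phgdh, 0.21 beside -0.11). Shmt2 and Mthfd2 were the positive ones under each alternative, joined by Phgdh without MWA mouse 5. Under a filter of 5 FPKM Tyms was not tested. The mean of the mitochondrial enzymes was 0.0866 after rescaling to 1000000. With single mice left out it ranged from -0.005 to 0.04, that of the cytosolic folate enzymes from -0.14 to -0.07, that of the serine synthesis enzymes from -0.14 to -0.03, and the mitochondrial minus the cytosolic mean from 0.09 to 0.16.

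Calls over all genes were 69 higher and 161 lower with a filter of 5 FPKM, 67 and 143 in the Wilcoxon rank-sum test, and 328 and 159 after rescaling (127 and 249 in the analysis reported), which moved the median log2 fold change from 0.01 to 0.07. With single mice left out they ranged from 80 (without MWA mouse 5) to 222 (without MWA+2DG mouse 5) higher and from 177 (without MWA+2DG mouse 5) to 315 (without MWA+2DG mouse 4) lower. In the wider lists, calls were 1 higher with a filter of 5 FPKM, 5 higher and 0 lower after rescaling, 2 lower with a pseudocount of 0.1, and 0 to 5 in each direction with single mice left out. The cause was not tested.

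Same-numbered mice correlated at 0.331, 0.501, 0.11, 0.0334 and 0.151 in their deviations from the group mean, so the numbers were not taken to pair them. With a replicate block 164 genes were higher and 285 lower, and 2 genes of the wider lists were called lower, Rrm1 and Rrm2, while the call of Ddit3 was lost.

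No enzyme's correlation with the cell division level passed an adjusted p of 0.05 under the scalings and omissions run, and 1 did, Psat1, with the DNA replication list in its place. With that list the number was 0 after rescaling and without the 2 farthest mice, 3 after median ratio scaling (Psat1, Shmt2 and Mthfd2), and 0 to 1 with single mice left out. With the means of both sets of mice removed the number was also 0, but there the few permutations let no lone enzyme pass. Among pairs of members it was 1 under quantile normalization, 2 under median ratio scaling and 0 to 1 with single mice left out. Depth is unknown, so no limit from counting can be given.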
